A study of Mus musculus with 6 samples.

Results

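Metallothioneins and the genes that sense and move zinc were followed in lung endothelial cells (ECs) as 7 named genes of the 47729 genes counted. They are the metallothioneins Mt1 and Mt2, the zinc sensor Mtf1, the zinc exporter Slc30a1 (ZnT1) and the importers Slc39a8 (ZIP8), Slc39a10 (ZIP10) and Slc39a14 (ZIP14). All 7 were among the 14625 genes that passed the filter on low counts.

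The libraries came from male mice, 14 weeks of age on normal chow, that received angiotensin II (AngII, 1000 ng/kg/min) from an osmotic pump for 2 weeks. In the leene-KO mice, CRISPR/Cas9 removed the mouse region syntenic to the human long noncoding RNA gene LEENE (LINC00520), and the WT mice were their littermates. Every mouse in both groups received AngII, so no library shows the cells without the infusion. There were 3 WT and 3 KO libraries of poly(A) RNA. The deletion is in the whole animal, so the cells other than ECs also carry it. ECs were enriched with beads against CD31 according to the sample labels and against CD144 according to the methods. The labels describe cells pooled from 3 mice in each group, and the source of a single library, 1 animal or several, is not given, so the p-values below measure only the spread between libraries, which may be technical. The deleted leene genes were not analysed here, and the genotype was therefore not checked by its targeted gene.

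Metallothioneins are small, cysteine-rich proteins that bind zinc and copper and buffer them in the cytosol. When cytosolic zinc is high, the zinc finger protein MTF1 binds metal response elements (MREs) in the promoters of the metallothionein genes and of Slc30a1 and switches them on. SLC30 (ZnT) proteins carry zinc out of the cytosol, whereas SLC39 (ZIP) proteins carry it in. Glucocorticoids, interleukin-6 and oxidative stress also induce metallothioneins, and in the lung the ECs are among the cells that make them.

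The library totals were 24464324 to 35184063 counts, of which 37.4 to 54.5% fell on mitochondrial genes. All 10 EC markers were detected in the libraries, with a sum of 1293 to 2694 CPM (counts-per-million, scaled by TMM) in WT and 1713 to 2815 in KO. RNA of other lung cells was also present. The 6 alveolar type II markers summed to 5274, 49930 and 15390 CPM in WT libraries 1, 2 and 3, and to between 38800 and 47890 CPM in KO. The 5 airway epithelial markers summed to 10520 to 25410 CPM in WT and 22870 to 36570 CPM in KO, and the 4 alveolar type I markers to 592 to 1360 and 1058 to 1534 CPM. Sums of the 5 B cell markers were 6.63 to 15.8 CPM in WT and 54.8 to 59.8 CPM in KO. Those of the 6 T cell markers were 2.62 to 4.45 CPM in WT and 6.7 to 9.2 CPM in KO. For the 3 mesothelium markers they were 61.6 to 123 CPM in WT and 135 to 161 CPM in KO. The sums of all other marker lists overlapped between the groups. No gene of any marker list was at 0 in all libraries, and the levels below are those of the mixture.

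The promoters of the genes that MTF1 is known to switch on are shown here because the question for the metallothioneins is whether genes with this element moved together. RefSeq windows of build GRCm38.p6 run from 250 bases before to 50 bases after each annotated start. They were found for 6 of the 7 genes, and 8 windows were searched. The core of the element was searched on both strands as TGCACNC and TGCGCNC, where N is any base, and matches of the 2 strands that overlap were both counted. Capitals mark each match, none of which overlaps another in the windows shown. Mt1 is shown at chr8:94178839-94179138 (plus strand), Mt2 at chr8:94172368-94172667 (plus strand) and Slc30a1 at chr1:191906531-191906830 (plus strand).
Mt1: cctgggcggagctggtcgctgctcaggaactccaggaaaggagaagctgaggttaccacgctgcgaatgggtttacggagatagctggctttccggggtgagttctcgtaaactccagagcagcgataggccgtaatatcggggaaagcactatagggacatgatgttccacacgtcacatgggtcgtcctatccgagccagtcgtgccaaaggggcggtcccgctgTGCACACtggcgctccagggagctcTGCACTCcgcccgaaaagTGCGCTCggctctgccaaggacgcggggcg
Mt2: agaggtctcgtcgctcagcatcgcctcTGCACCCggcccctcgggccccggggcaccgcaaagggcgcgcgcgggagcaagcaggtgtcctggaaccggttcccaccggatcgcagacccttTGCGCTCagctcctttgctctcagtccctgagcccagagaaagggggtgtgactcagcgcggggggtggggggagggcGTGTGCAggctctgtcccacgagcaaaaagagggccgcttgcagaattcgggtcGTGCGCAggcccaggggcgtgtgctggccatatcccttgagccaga
Slc30a1: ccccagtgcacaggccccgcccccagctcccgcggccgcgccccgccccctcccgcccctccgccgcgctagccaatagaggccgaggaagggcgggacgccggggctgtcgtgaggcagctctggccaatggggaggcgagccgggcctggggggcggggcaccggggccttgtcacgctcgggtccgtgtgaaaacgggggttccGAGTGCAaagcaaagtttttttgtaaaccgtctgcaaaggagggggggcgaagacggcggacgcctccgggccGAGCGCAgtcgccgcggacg

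The Mt1 window held 3 matches, the Mt2 window 4 and the Slc30a1 window 2. Counting the start base as 1, with the base before it as -1, the Mt1 matches began at -23, 3 and 21. Those of Mt2 began at -223, -128, -50 and 5, and those of Slc30a1 at -43 and 31. Of 32851 mouse promoter windows of this length, 25.7% held at least 1 match, 7.11% at least 2, 1.97% at least 3 and 0.517% at least 4. Of the windows of Slc39a8, 1 held a single match, and those of Mtf1 and Slc39a10 held none. An antioxidant response element, searched as TGAC and GC with 3 bases between them and found in 12.4% of all windows, was present in the Mt2 window at -79 and in the Slc30a1 window at -82. A window of Slc39a8 held such an element and a heat shock element, searched as GAA, TTC and GAA with 2 bases between each and found in 0.603% of all windows. A glucocorticoid response element, searched as AGAACA and TGTTCT with 3 bases between them and found in 0.00913% of all windows, was in none of the 8. So few windows hold this exact sequence that its absence here does not show that the genes lack such an element. Bases outside the windows were not searched. These matches are letters in a window and were not tested for binding.

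The metallothioneins were the most abundant of the 7 genes for their length. On the scale of CPM per kilobase of exon, the mean level over the 6 libraries was 48.4 ± 26.2 (SD) for Mt1 and 31.3 ± 31.7 for Mt2. Slc39a8 followed at 12.3 ± 4.93, Slc30a1 at 5.41 ± 0.954, Mtf1 at 3.04 ± 0.516, Slc39a10 at 2.45 ± 0.536 and Slc39a14 at 0.612 ± 0.104. Mt1 was above Mt2 in all 6 libraries, Slc39a8 above Slc30a1 in 6, Slc30a1 above Mtf1 in 6, and Slc39a10 above Slc39a14 in 6. Mt2 was above Slc39a8 in 5 of 6 libraries and Mtf1 above Slc39a10 in 5 of 6, so the order of these neighbors was not held in every library. Among the zinc importers that are not in the set, the epithelial importer Slc39a4 had a mean of 40.5 CPM per kilobase, a level between those of Mt1 and Mt2.

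**Figure D1:**
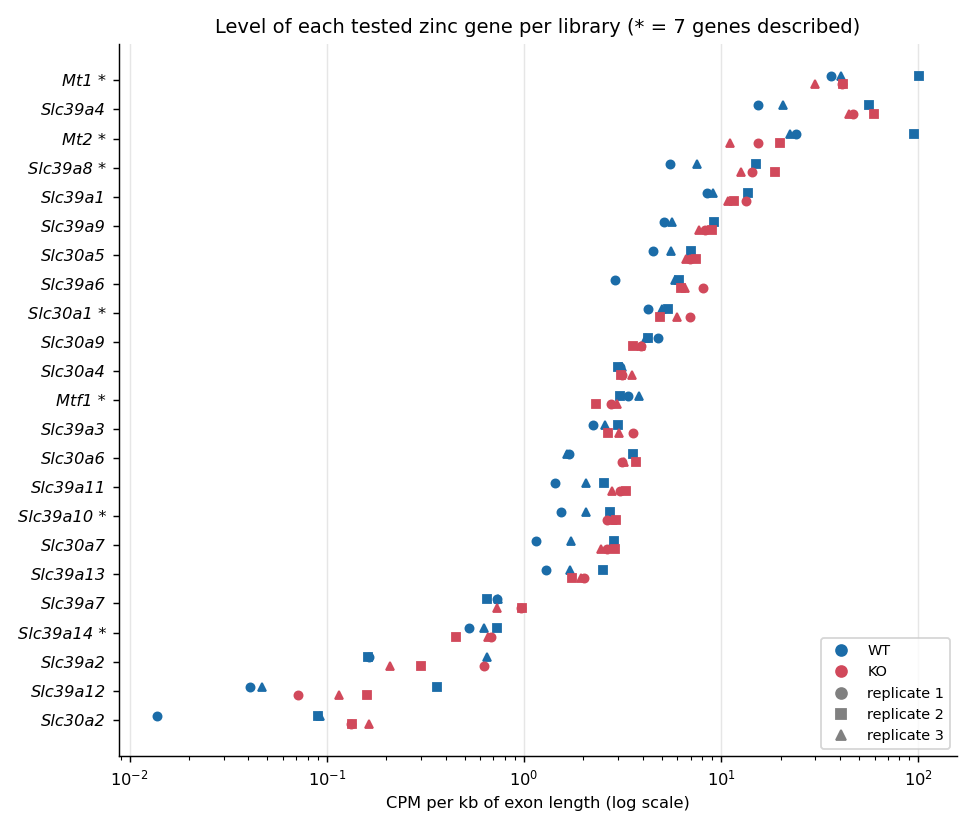
Level of each tested zinc gene in CPM per kilobase of exon length (log axis), 1 point per library, WT in blue and KO in red, with symbols for replicates 1, 2 and 3 and an asterisk at each of the 7 genes described. Mt1 and Mt2 of WT replicate 2 lie at 101 and 95.3, apart from the other libraries of those genes.

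No gene of the 7 passed an adjusted p of 0.05 in the comparison of KO with WT. Mt2 and Mtf1 had lower values in every KO library than in any WT library, Mt1 and Slc39a14 had estimates below 0 with overlapping groups, and the estimates of Slc30a1, Slc39a8 and Slc39a10 lay above 0. By edgeR's quasi-likelihood test, 0 of 7 genes were called, where 16 genes in all (0.109% of those tested) were called, 5 higher and 11 lower. At an unadjusted p under 0.05 there were 2 of 7, Mt2 and Mtf1, beside 10.3% of all genes tested. DESeq2 called 0 of the 7 and 1.21% of the genes it tested, and limma-voom and edgeR's likelihood ratio test also called 0. Every KO library was below every WT library in 2 of 7 genes, beside 9.2% of all genes, and above in 0 of 7, beside 8.59% of all genes. The median log2 fold change (KO over WT) was -0.07 over the 7 genes and 0.03 over all genes tested. With 3 libraries against 3, an exact two-sided permutation test cannot give a p below 0.1.

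**Figure D2:**
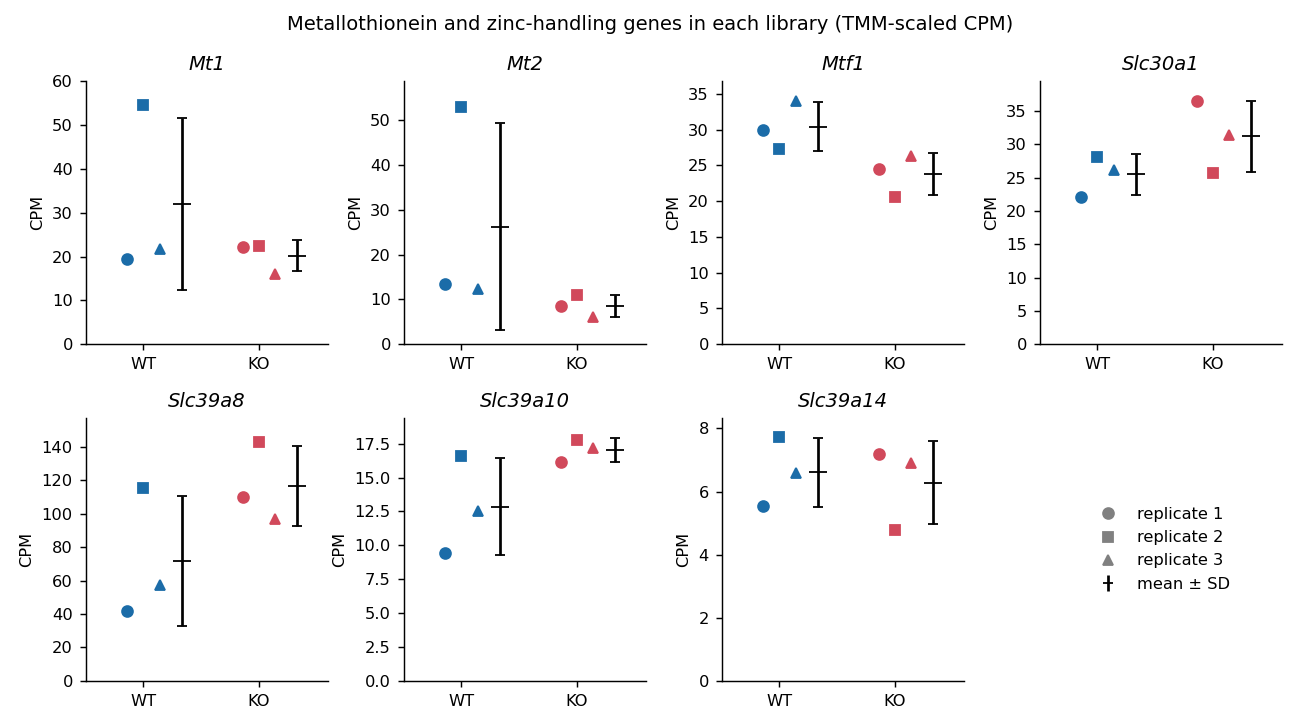
TMM-scaled CPM of the 7 genes in each of the 3 WT (blue) and 3 KO (red) libraries, with symbols for replicates 1, 2 and 3, and the mean ± SD of each group as a black bar beside the points. WT replicate 2 stands above the other 5 libraries for Mt1 and Mt2, and the groups are separate only for Mt2 and Mtf1.

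Mt2 (ENSMUSG00000031762, chromosome 8, 94172618 to 94173567, plus strand) encodes one of the main metallothioneins of mouse tissue. Its level was 13.4, 53.0 and 12.4 CPM in WT libraries 1, 2 and 3, and 8.55, 11.0 and 6.17 CPM in KO libraries 1, 2 and 3. The KO libraries were all below the WT libraries, but the gap between the highest KO and the lowest WT library was small beside the distance of WT library 2 from the rest. Mean levels were 26.2 ± 23.2 CPM in WT and 8.59 ± 2.43 CPM in KO (SD, n = 3). The log2 fold change was -1.61 (SE 0.57, 95% interval -2.94 to -0.29), a 3.06-fold lower fitted level in KO, which did not pass the adjusted threshold in edgeR (adjusted p = 0.423) or in DESeq2 (adjusted p = 0.0734). An exact permutation test gave p = 0.1, the lowest it can give. Mt2 was called by edgeR when libraries were scaled by total counts (adjusted p = 3.04e-05) or by total counts without mitochondrial genes (0.00973). It was also called without the filter on low counts (edgeR adjusted p = 0.0239). The estimates there were -1.73, -1.71 and -1.62, near the main one, and the SEs were smaller, at 0.318, 0.344 and 0.352. In these fits 123, 114 and 152 genes in all were called, beside 16 in the main fit. Over all settings the adjusted p of Mt2 reached 0.75. In bulk RNA, fewer cells of a type and less RNA per cell cannot be told apart for this or any result below.

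Mt1 (ENSMUSG00000031765, chromosome 8, 94179089 to 94180325, plus strand), the neighboring metallothionein gene, had 19.6, 54.6 and 21.8 CPM in the WT libraries. The KO libraries had 22.1, 22.5 and 16.1 CPM. KO libraries 1 and 2 lay above WT libraries 1 and 3, and only WT library 2 was apart. The means were 32.0 ± 19.6 CPM in WT and 20.2 ± 3.61 CPM in KO (SD, n = 3). The estimate was -0.66 (log2, SE 0.39, 95% interval -1.56 to 0.23, edgeR adjusted p = 0.577).

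WT library 2 set much of the size of both differences. Its Mt1 was 2.64 times and its Mt2 4.12 times the mean of WT libraries 1 and 3. Without this library the log2 fold change was -0.07 for Mt1 and -0.62 for Mt2 (edgeR adjusted p = 0.193 for Mt2). The mean Mt2 level of WT libraries 1 and 3, 12.9 CPM, was 1.5 times the KO mean, and for Mt1 this ratio was 1.02. The same library had the highest sum of the 5 neutrophil markers, with 70.0 CPM against 27.0 and 32.1 CPM in the other WT libraries and 35.9 to 39.6 CPM in KO. It also had the highest alveolar type II sum of all 6 libraries, at 49930 CPM. In KO library 2 this sum was 47890 CPM and Mt2 was 11.0 CPM. The part of these cells in the metallothionein levels was not tested.

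**Figure D3:**
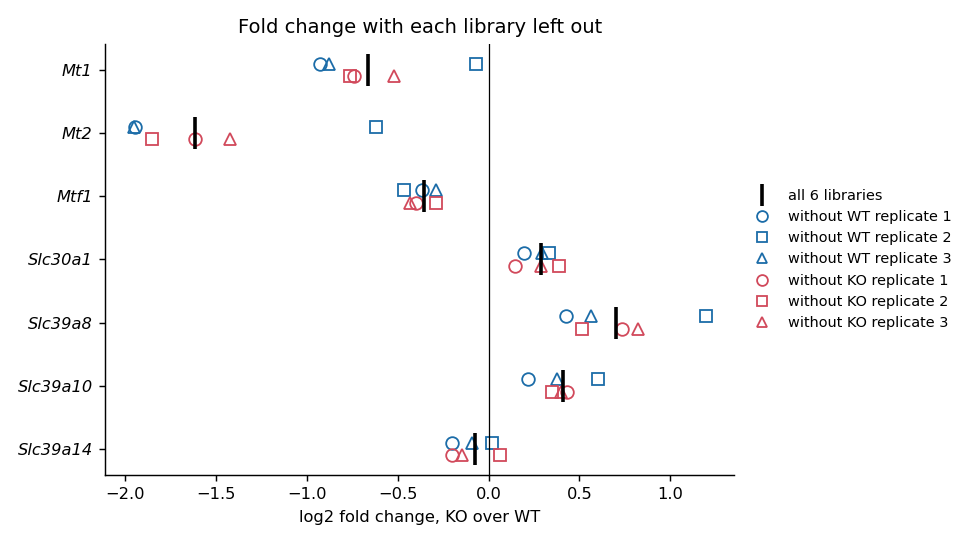
Log2 fold change (KO over WT) of the 7 genes with all 6 libraries (black bar) and with each library left out in turn (open symbols, blue for a WT and red for a KO library). Leaving out WT replicate 2 moved Mt1 to -0.07, Mt2 to -0.62 and Slc39a8 to 1.2, the largest shift for each of these genes.

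Mtf1 (ENSMUSG00000028890, chromosome 4, 124802104 to 124849800, plus strand) encodes the transcription factor that reads cytosolic zinc. WT libraries had 30.0, 27.2 and 34.0 CPM, and KO libraries 24.5, 20.6 and 26.2 CPM. The KO libraries were all lower, and the closest pair was WT library 2 and KO library 3. The means were 30.4 ± 3.42 CPM and 23.8 ± 2.87 CPM (SD, n = 3). The log2 fold change was -0.35 (SE 0.15, 95% interval -0.69 to -0.01), with an adjusted p = 0.476 by edgeR. Each library left out in turn gave between -0.46 and -0.29, so unlike Mt1 and Mt2 the estimate did not rest on WT library 2. The groups overlapped when libraries were scaled by their total counts, with or without mitochondrial genes, whereas Mt2 was lower in every KO library under all 5 scalings.

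Slc30a1 (ENSMUSG00000037434, chromosome 1, 191906767 to 191913247, plus strand) encodes the exporter that removes zinc across the plasma membrane and is, like the metallothioneins, a known MTF1 target. WT libraries had 22.2, 28.2 and 26.1 CPM, KO libraries 36.5, 25.8 and 31.4 CPM. KO library 2 fell inside the WT range and KO libraries 1 and 3 above it. The estimate lay on the other side of 0 from those of Mt1 and Mt2, at 0.29 (log2, SE 0.17, 95% interval -0.10 to 0.68, edgeR adjusted p = 0.572). Without KO library 1 it was 0.14 and without WT library 1 0.19. Means were 25.5 ± 3.05 CPM in WT and 31.2 ± 5.37 CPM in KO (SD, n = 3). The 3 genes with several MRE cores in their promoter windows therefore had estimates of -1.61, -0.66 and 0.29, none of them called. The list of 5 other genes known as MTF1 targets had 0 called by edgeR, beside 0.109% of all genes, and 1 at an unadjusted p under 0.05, beside 10.3%. All 5 estimates were below 0, with a median log2 fold change of -0.19, where 54.1% of all genes had an estimate above 0. KO was below WT without overlap in 1 of the 5, beside 9.2% of all genes. This was Ndrg1, a gene induced by hypoxia and metals, with 62.8, 79.9 and 46.5 CPM in WT and 29.0, 36.8 and 36.4 CPM in KO. Its log2 fold change was -0.89, past the threshold in DESeq2 (adjusted p = 0.0213), which called 1.21% of all genes, and not in edgeR (adjusted p = 0.274). Csrp1, a LIM domain protein of the cytoskeleton, was next at -0.22 (edgeR adjusted p = 0.667).

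Slc39a8 (ENSMUSG00000053897, chromosome 3, 135825279 to 135888572, plus strand) encodes an importer of zinc, manganese and cadmium. Its levels were 42.1, 115.4 and 57.5 CPM in WT and 110.2, 143 and 96.7 CPM in KO. WT library 2 lay within the KO range and WT libraries 1 and 3 below it. The means were 71.7 ± 38.7 CPM and 117 ± 23.8 CPM (SD, n = 3), and the log2 fold change was 0.70 (SE 0.36, 95% interval -0.13 to 1.54, edgeR adjusted p = 0.536). Without WT library 2 it was 1.2 and passed the threshold (edgeR adjusted p = 0.0321). In that fit 791 genes in all were called, 660 of them higher in KO, beside 16 with all 6 libraries. Without WT library 1 the Slc39a8 estimate was 0.42. Libraries with low Slc39a8 were those with a low alveolar type II marker sum. WT libraries 1 and 3 had sums of 5274 and 15390 CPM, and the 4 other libraries 38800 CPM or more. Whether epithelial RNA set the Slc39a8 level was not tested.

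Slc39a10 (ENSMUSG00000025986, chromosome 1, 46807544 to 46892852, minus strand), another plasma membrane zinc importer, had 9.42, 16.6 and 12.6 CPM in WT and 16.1, 17.8 and 17.2 CPM in KO. Only KO library 1 lay inside the WT range. The means were 12.9 ± 3.59 CPM and 17.0 ± 0.853 CPM (SD, n = 3), and the log2 fold change was 0.41 (SE 0.21, 95% interval -0.08 to 0.89, edgeR adjusted p = 0.536). As for Slc39a8, WT libraries 1 and 3 were the lowest, and without WT library 1 the estimate was 0.22.

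Slc39a14 (ENSMUSG00000022094, chromosome 14, 70303469 to 70351425, minus strand) encodes an importer of zinc, iron and manganese that interleukin-6 is known to induce in liver. It was the lowest of the 7 genes, with 5.53, 7.72 and 6.60 CPM in WT and 7.18, 4.78 and 6.90 CPM in KO. The groups overlapped, with means of 6.62 ± 1.10 CPM and 6.29 ± 1.31 CPM (SD, n = 3). The log2 fold change was -0.07 (SE 0.22, 95% interval -0.59 to 0.44, edgeR adjusted p = 0.917). The interval spans 0, and the sign turned to 0.02 without WT library 2 and to 0.06 without KO library 2.

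The 7 genes were then set beside the rest of their families, which had 29 genes with Mtf1 included. Of these, 23 passed the filter on low counts. By edgeR's quasi-likelihood test 0 of 23 were called, and 3 had an unadjusted p under 0.05, beside 10.3% of all genes. DESeq2 called none. KO libraries were all above WT in 3 of 23, beside 8.59% of all genes, all below in 3, beside 9.2%, and overlapped in 17. These shares are near those over all genes. The 3 above were Slc39a11, Slc39a6 and Slc30a2 and the 3 below were Mt2, Mtf1 and Slc30a9, of which Slc39a6 and Slc30a9 are named because of their values. The metallothioneins Mt3 and Mt4, which belong to brain and to squamous epithelium, had 1 count and 0 counts in all 6 libraries together. The exporters Slc30a8 and Slc30a10 and the importer Slc39a5 were at 0 in every library, and Slc30a3 had 2 counts in 1 KO library.

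Estimates of the transporters lay mostly above 0, opposite in sign to those of the metallothioneins. Of 20 zinc transporters tested, 17 had a log2 fold change above 0, beside 54.1% of all genes, and their median was 0.31 beside 0.03 for all genes. None passed the adjusted threshold, and under the other settings 15 to 18 estimates were above 0. Of the exporters, 6 of 7 tested were above 0, and of the importers 11 of 13. Slc39a11, an importer of the Golgi and nucleus, had an estimate of 0.61 (SE 0.22, edgeR adjusted p = 0.442). Slc39a4, which takes up dietary zinc in the gut, had 34.0, 126 and 45.8 CPM in WT and 104, 132 and 99.3 CPM in KO, and an estimate of 0.71 (edgeR adjusted p = 0.601). Slc30a6, which loads zinc into the Golgi, was at 0.53 and Slc30a2 at 1.19, both with an edgeR adjusted p of 0.577. Slc30a2 was never above 0.586 CPM.

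**Figure D4:**
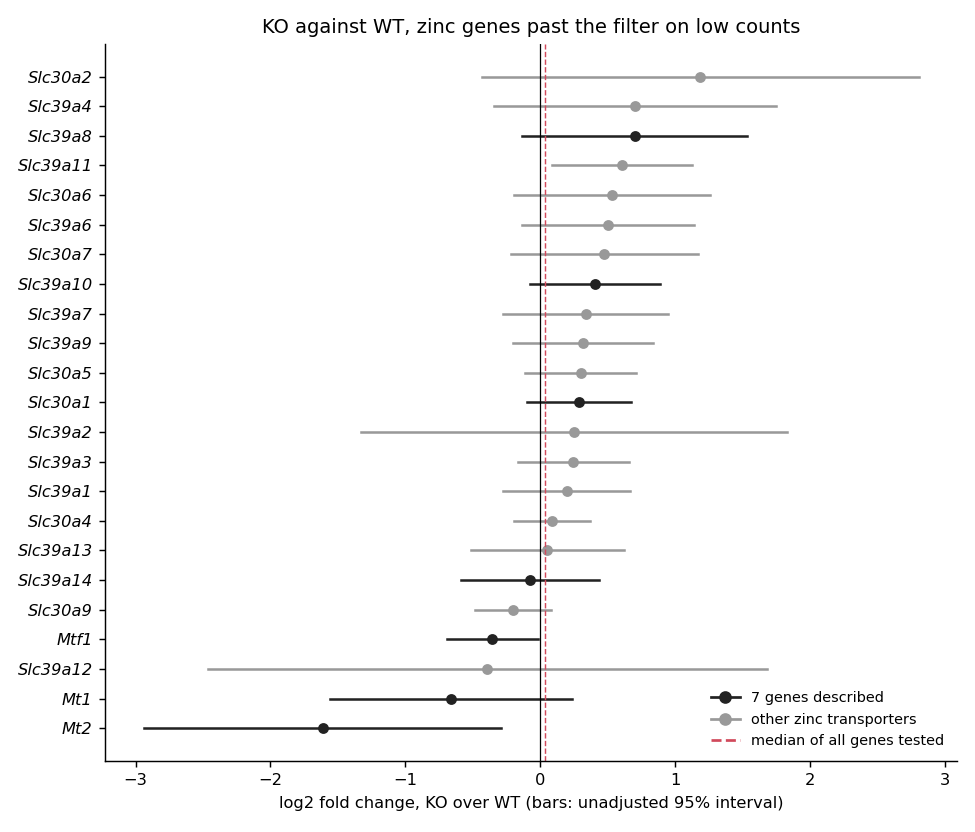
Log2 fold change (KO over WT) of the 23 tested zinc genes, with the unadjusted 95% interval as a bar, the 7 genes described in black, other transporters in gray and the median of all tested genes as a dashed line. The intervals of Mt2, Mtf1 and Slc39a11 leave out 0, and 17 of the 20 transporters lie to the right of 0.

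A single library also stood out here. WT library 1 was the lowest of the 6 in 14 of the 20 transporters (70%), beside 26.7% of all genes tested, and KO library 2 was the highest in 8 (40%), beside 19.1% of all genes. WT library 1 had the lowest alveolar type II sum, at 5274 CPM, and the lowest airway sum, at 10520 CPM. It also had the lowest endothelial sum, at 1293 CPM, and the lowest sum of every other marker list except the erythroid and platelet lists. Its TMM factor was 1.37, against 0.874 to 1.04 in the other libraries. KO library 2 had the highest airway sum, at 36570 CPM. Without WT library 1 the transporters' median log2 fold change was 0.17, with 15 of 20 above 0. The part of the cell mixture or of the scaling in these levels was not tested.

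Genes of the other metals that metallothioneins and ZIP proteins handle gave no calls. Of 13 copper genes, 0 were called by edgeR or DESeq2, 1 had an unadjusted p under 0.05 (10.3% of all genes) and the median log2 fold change was 0.15. The largest estimates were those of the copper ferroxidase gene Cp at 0.76 (edgeR adjusted p = 0.568) and of the mitochondrial copper chaperone gene Sco2 at -0.65 (edgeR adjusted p = 0.643). Of 14 iron and manganese genes tested, 0 were called by either tool, 1 had an unadjusted p under 0.05, again beside 10.3% of all genes, and the median was 0.26. Tfrc, the transferrin receptor, had 29.3, 189 and 72.2 CPM in WT and 183, 269 and 230.0 CPM in KO. The log2 fold change was 1.23 (edgeR adjusted p = 0.508). Slc11a2, which imports iron and manganese, was above WT in every KO library, at 0.73 (edgeR adjusted p = 0.356). KO was above WT without overlap in 2 of the 14 genes, beside 8.59% of all genes, and below in 0, beside 9.2%.

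Genes induced by glucocorticoids or heat shock, signals that can also induce metallothioneins, had median estimates below 0. With all libraries these medians lay between the estimates of Mt1 (-0.66) and Mt2 (-1.61). Without WT library 2 the estimates were -0.07 for Mt1 and -0.62 for Mt2, and the list medians were not computed without it. All 9 glucocorticoid-induced genes tested were below every WT library in every KO library, beside 9.2% of all genes, with a median log2 fold change of -1.22. Of these, 1 fell past the threshold in edgeR, beside 0.109% of all genes called, and 6 did in DESeq2, beside 1.21%. The 1 in edgeR was Tsc22d3, which encodes the glucocorticoid-induced leucine zipper GILZ, at -1.56 (edgeR adjusted p = 0.0348). Zbtb16, a zinc finger repressor, was at -2.25 (edgeR adjusted p = 0.0581) and Fkbp5, a cochaperone of the glucocorticoid receptor, at -2.03 (edgeR adjusted p = 0.0989). The glucocorticoid and heat shock lists were chosen with earlier results of these data known. Of 10 heat shock genes, all were lower in every KO library, beside 9.2% of all genes, and the median was -1.42. In edgeR 3 of the 10 fell past the threshold, beside 0.109% of all genes called, and in DESeq2 7, beside 1.21%. The 3 were the chaperone genes Hspa1b at -3.37 (edgeR adjusted p = 0.0188), Hsph1 at -2.17 (adjusted p = 0.0099) and Hspb1 at -1.53 (adjusted p = 0.0276). Hspa1a is a near-identical copy of Hspa1b, so the counts of both genes are uncertain. Hspa1a was at -2.64 (edgeR adjusted p = 0.0524). The edgeR calls of both lists were lost without any 1 of the KO libraries and with the replicate block, where no gene was called in the whole table.

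Among 10 genes induced by interleukin-6 and STAT3, 0 were called by edgeR, 6 had an unadjusted p under 0.05 (10.3% of all genes), DESeq2 called 3 (1.21% of all genes), and the median log2 fold change was -0.42. Cebpd, an acute phase transcription factor, was at -1.51 (edgeR adjusted p = 0.0524) and Bcl3, a partner of nuclear factor kappa B, at -0.96 (edgeR adjusted p = 0.14). KO was below WT without overlap in 5 of the 10, beside 9.2% of all genes. Mt2 had an estimate of -1.61 with all libraries and of -0.62 without WT library 2, Mt1 of -0.66 and Mtf1 of -0.35. Differences between the lists and the 7 genes were not tested.

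**Figure D5:**
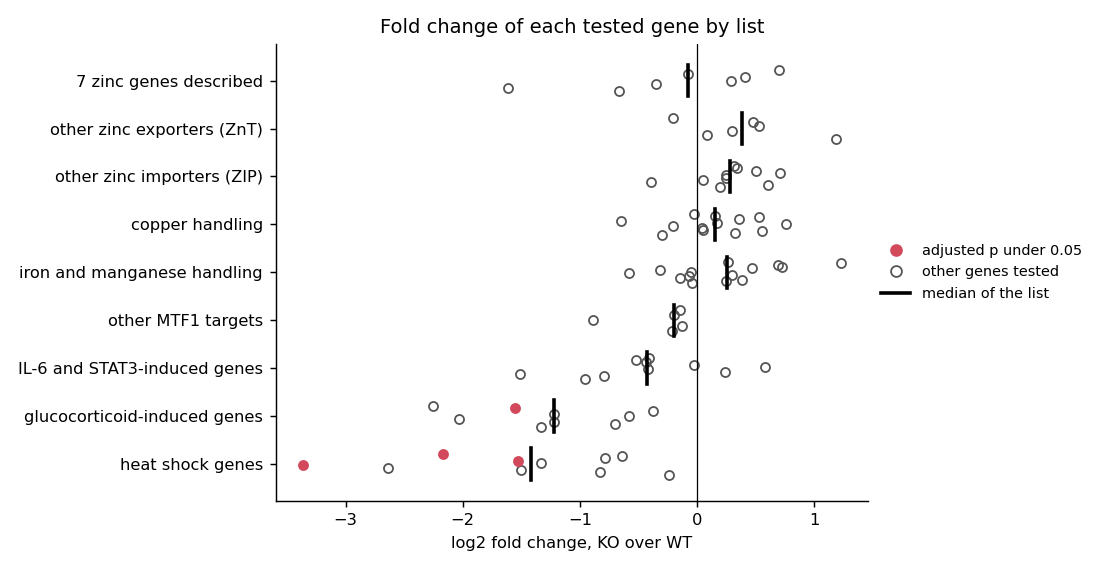
Log2 fold change (KO over WT) of each tested gene, by list, with filled points for an edgeR adjusted p under 0.05 and a black bar at each list's median. The medians run from -1.42 for heat shock genes to 0.39 for the other zinc exporters, and the 7 zinc genes span -1.61 to 0.70.

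For each of the 7 genes, the 3 most alike of 11616 genes with a mean log2 CPM of at least 1 were taken by Pearson's r of log2 CPM over the 6 libraries. These r values describe libraries that share their mixture of cells and their depth, and they are the highest of many. Mt1 was most like Cpne5 (r = 0.988), Tnfrsf21 and Runx1 (both 0.982), and Mt2 was most like Xbp1 (0.973), Spsb1 (0.972) and Il1b (0.97). By rank (Spearman's rho), Mt1 correlated with Cpne5 at only 0.657, with Tnfrsf21 at 1 and with Runx1 at 0.943. Mtf1 was most like Hilpda (0.997), Nop58 (0.996) and Ldb2 (0.995), and Slc30a1 most like Cd274, Ccn4 (both 0.988) and Tm4sf1 (0.985). Slc39a8 was most like Sel1l3 (0.999), Egfr (0.998) and Hpn (0.998), Slc39a10 most like Tfrc (0.999), Vasn (0.999) and Scpep1 (0.998), and Slc39a14 most like Adgra2 (0.983), Vma21 (0.977) and Btbd19 (0.977). No gene was shared between these sets.

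Reads of the 7 genes could rarely be shared with near-identical genes. No stretch of 50 bases, the length of the reads, of Mt1, Mt2, Mtf1 or Slc30a1 was found in another gene's exons, and for Slc39a8, Slc39a10 and Slc39a14 the share of such stretches was 0.289%, 0.447% and 0.187%. No gene on the same strand overlapped an exon of the 7. Mtf1 and Slc30a1 each have an antisense gene that overlaps an exon, and the reads were counted by strand. Each of the 7 genes had at least 130 counts in every library, the lowest being Slc39a14 in KO library 2.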

How the data were processed

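RNA-seq was analysed from 3 WT and 3 leene-KO lung EC libraries, grouped by their labels. The authors deposited raw counts per gene and library, whole numbers without normalization. According to the file headers and the submitters' processing notes, reads were aligned to GRCm38 and counted by strand over exons with featureCounts (Subread 2.0.0), without multi-mapped reads, so that genes with near-identical copies can lose reads. STAR 2.5.4b is listed among the tools.

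Differential expression was tested with edgeR 4.0.16 in R 4.3.3 (filterByExpr and TMM with defaults, quasi-likelihood test, genotype as the only term), with Benjamini-Hochberg adjustment over the 14625 genes tested and a threshold of 0.05. CPM used TMM-scaled library sizes, SDs are over 3 libraries, and levels per kilobase used the deposited exon lengths. DESeq2 1.42.0, limma-voom (limma 3.58.1), the likelihood ratio test, 4 other scalings, other filters, robust dispersions, a replicate block and each library left out were alternatives. Totals of 24464324 to 35184063 counts per library left genes near 1 CPM on few counts, and no pair of libraries agreed within sampling noise.

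The 7 genes, the gene lists and the markers were chosen with earlier results of these data known. Named are all 7 genes, in each other list every gene past the threshold and the 2 largest absolute log2 fold changes, the markers as sums, and the 3 genes most alike each of the 7.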

Additional observations from a re-analysis of the deposited data

How the results depend on the processing

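The number of genes called among all tested moved from 16 to 187 with DESeq2, 26 with limma-voom, 211 with the likelihood ratio test, 26 with RLE, 31 with upper-quartile scaling, 123 with total counts, 114 with total counts without mitochondrial genes, 152 without a filter and 0 with the replicate block (1776 at an unadjusted p under 0.05), and from 0 to 791 with 1 library left out (791 without WT library 2, 0 without each KO library, with 986 to 1112 at an unadjusted p under 0.05). Of the 7 genes, and of the zinc transporters and metallothioneins as a whole, 1 was called, Mt2, with total counts (log2 fold change -1.73, edgeR adjusted p = 3.04e-05), total counts without mitochondrial genes (-1.71, 0.00973) and no filter (-1.62, 0.0239). These total-count scalings moved the median of all genes by -0.165 and -0.215. With 1 library left out, 0 to 1 of the 7 genes and 0 to 3 of all zinc genes were called. Those without WT library 2 were Slc39a8, Slc39a4 and Slc30a6.

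Leaving out 1 library gave -0.93 to -0.07 for Mt1, -1.95 to -0.62 for Mt2, -0.46 to -0.29 for Mtf1, 0.14 to 0.39 for Slc30a1, 0.42 to 1.2 for Slc39a8, 0.22 to 0.60 for Slc39a10 and -0.20 to 0.06 for Slc39a14, whose sign turned without WT library 2 (0.02) or KO library 2 (0.0649). No other estimate of the 7 changed sign under any setting. Over all settings the adjusted p ranged from 3.04e-05 to 0.75 for Mt2, 0.227 to 0.869 for Mt1, 0.123 to 0.799 for Mtf1 and 0.0321 to 0.835 for Slc39a8. The causes were not tested. Deviations of same-numbered libraries correlated at -0.0814, 0.219 and 0.0111, and those of differently numbered libraries at -0.185 to 0.194. With 3 libraries in each group these values cannot decide whether the numbers pair the samples. With the replicate block Mt2 was at -1.31 (adjusted p = 0.321), Mt1 at -0.52 and Mtf1 at -0.36, none called.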

Other observations

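The ratio of Mt2 to Mt1 counts within a library does not depend on how libraries are scaled. It was chosen after the values of both genes had been seen. The ratio was 0.683, 0.97 and 0.567 in WT libraries 1, 2 and 3, and 0.386, 0.49 and 0.384 in KO libraries 1, 2 and 3. Every KO library was below every WT library, and WT library 2 was the highest of the 6. Mt2 made up 36.2 to 49.2% of the counts of both genes in WT and 27.8 to 32.9% in KO. On the log2 scale the mean was -0.47 ± 0.39 in WT and -1.26 ± 0.20 in KO (SD, n = 3), a difference of -0.79. An exact two-sided permutation test gave p = 0.1, the lowest that 3 libraries against 3 allow.

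With libraries scaled by their total counts without mitochondrial genes, Mt1 and Slc39a14 were also lower in every KO library. Slc39a10 was higher in every KO library, whereas the groups of Mtf1 overlapped. This scaling moved the genes as a whole: their median log2 fold change was -0.182 and 32.4% lay above 0, beside 54.1% in the main fit. The share of all genes without overlap under this scaling was not counted, and none of Mt1, Slc39a14 and Slc39a10 was called.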
